A study of Mus musculus with 16 samples.

Results

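The 27 genes described here encode proteins of the 2 ribosomes of a mouse cell: 13 belong to the cytosolic ribosome and 14 to the mitochondrial ribosome. They were chosen by gene symbol alone, as numbered Rpl, Rps, Mrpl and Mrps genes, among the 5921 complete gene rows held. Rows named as pseudogenes and the 2 rows Rpl32l and Rpl6l were left out. The rows held cover chromosomes 1 and 10 and chromosome 11 up to base 106501211. Ribosomal protein genes on other chromosomes were not analysed here, and neither was Atf4, so the knockout labels could not be checked against the targeted gene.

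The libraries came from ventricles of mouse hearts at E11.5, in 4 groups of 4. In the exon 2-3 line, exons 2 and 3 of Atf4 were floxed, and 4 conditional knockout (cKO) libraries were compared with 4 controls. In the exon 2 line, exon 2 alone was floxed, again with 4 cKO and 4 control libraries. Xmlc2-Cre, a driver for cardiomyocytes, made both knockouts, and the labels name no deletion in other cells of the ventricle. Each line was its own batch (1 for the exon 2-3 line and 2 for the exon 2 line), which leaves line and batch inseparable. The genotype field reads C57BL/6 WT for all 16 libraries, cKO included. The labels do not say whether controls carried a floxed allele or Cre. No drug was given. The design text states 4 biological replicates per group but does not say in so many words that each came from a separate embryo, and p-values measure the spread between these libraries.

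The cytosolic ribosome translates nuclear-encoded messenger RNA, and its proteins are made in large, matched amounts in growing cells. The mitochondrial ribosome translates the few proteins encoded by mitochondrial DNA, which are subunits of the respiratory chain. Its own proteins are encoded in the nucleus, made in the cytosol and imported. ATF4, the transcription factor deleted here, is known as an effector of the integrated stress response, a programme that runs while general translation is reduced.

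Promoter sequence was set beside the values because the genes of each ribosome are known to be expressed together. RefSeq (GRCm38.p6) gave a start site window for 22 of the 27 genes, 10 cytosolic and 12 mitochondrial. Both strands of the 250 bases before the start were searched for 3 motifs, none of which overlapped another in the matches shown. The C/EBP-ATF composite element TGATGNAA, a known ATF4 site, matched 0 of the 22 genes and 3.45% of all 32851 windows of the same length. The ETS family core CGGAAGT matched 5 of 10 cytosolic genes, 2 of 12 mitochondrial genes and 4.92% of all windows. The NRF1 element (GCGCA, any 1 base, then GCGC) matched 0 of 10 cytosolic genes, 3 of 12 mitochondrial genes and 3.74% of all windows. The sequences below show every match, as 30 bases on the gene's strand, 5′ to 3′, with the motif in capitals. A name with a letter a or b marks the first or second match of that gene.
Rpl41: agtaaggcagcCGGAAGTcgctgtctcgag
Rps12: gctcctaaaggCGGAAGTggaaactcctaa
Rpl19: gacttagcgtgACTTCCGgctacccagagg
Rpl23: tatcgccaattACTTCCGaggcgttgggtg
Rpl37a, a: acaccgagttcACTTCCGagagaggaggtc
Rpl37a, b: aggaggtcgcgtcACTTCCGctcgccggtc
Mrpl10: aatccttagctACTTCCGtctccgcgcagc
Mrpl27: tccgcaagaccCGGAAGTagatctatcccg
Mrpl30: tgacgccgctGCGCCTGCGCtgtcttctat
Mrpl44: agaagcacttGCGCACGCGCagtacactag
Mrpl45, a: gaagcctcctGCGCAGGCGCagctggctct
Mrpl45, b: tggtttcattGCGCACGCGCgaacccactg

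ACTTCCG and GCGCCTGCGC are the same motifs read on the other strand. The Rpl41 sequence lies at chr10:128549205-128549234 on the minus strand, with the motif 55 to 49 bases before the start. The Mrpl27 sequence lies at chr11:94653726-94653755 on the plus strand, with the motif 54 to 48 bases before the start. The Mrpl45 sequences lie at chr11:97315586-97315615 and chr11:97315668-97315697 on the plus strand, with the motif 120 to 111 and 38 to 29 bases before the start. The RefSeq start used for the window lay inside the gene row for Mrpl27 by 21 bases, for Rps12 by 174, for Mrpl45 by 793 and for Rpl19 by 4707. Mrpl42, Mrpl54 and Mrpl22, described below, are not among the genes with a match, and genes without a window were not searched. A match is a run of letters and not a shown binding site.

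All 27 genes were above 0 in all 16 libraries, and all 27 passed the filter of a mean of at least 1 TPM, the unit of transcript level scaled for transcript length and for the library total. Within the cytosolic ribosome, mean TPM over the 16 libraries ran from 475 for Rpl37a, a zinc-binding protein of the large subunit, to 1932 for Rpl41, the very short, basic protein of that subunit, with a median of 688. Within the mitochondrial ribosome it ran from 23.5 for Mrps14, of the small subunit, to 277 for Mrpl42, which has no bacterial counterpart, with a median of 61.5. The lowest cytosolic mean was above the highest mitochondrial mean. The spread of levels was 4.06-fold among cytosolic genes and 11.8-fold among mitochondrial genes. Gene spans ran from 1059 to 8491 bases (median 2650) for cytosolic and from 2205 to 54451 bases (median 8012.5) for mitochondrial members.

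**Figure D1:**
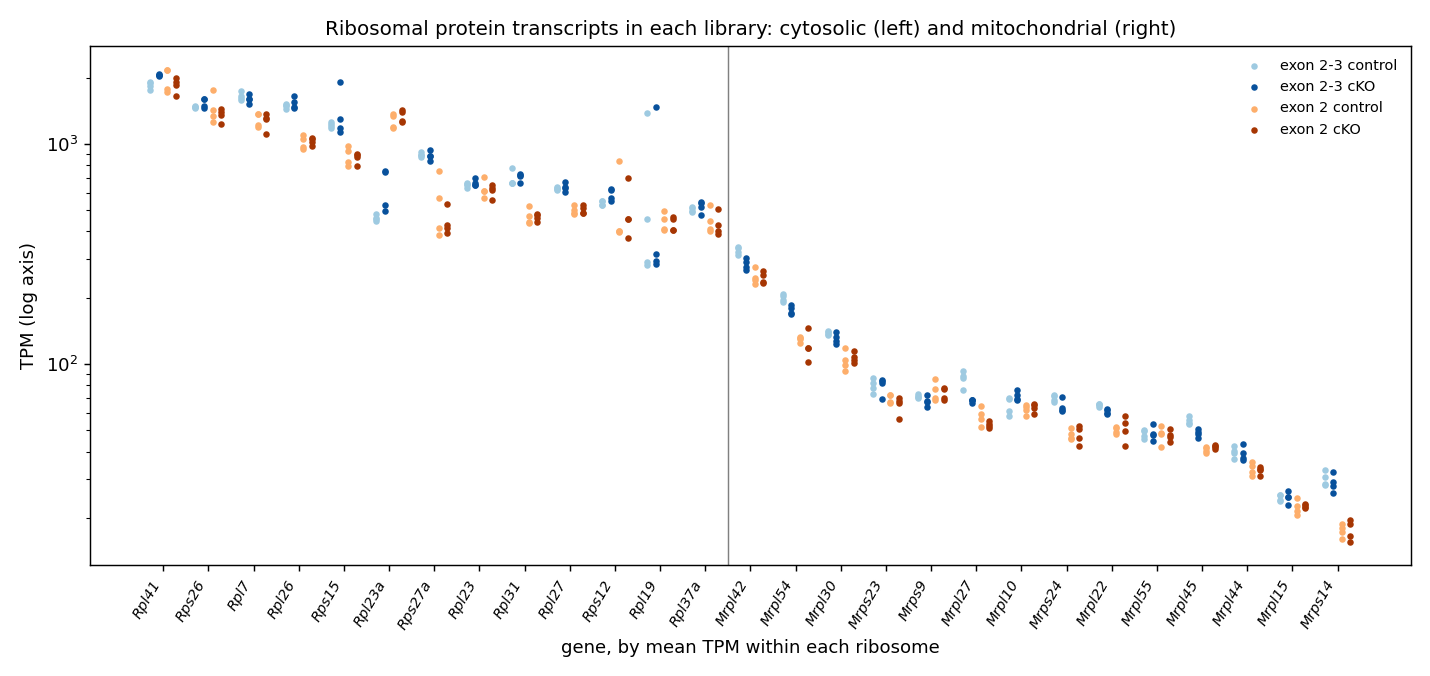
TPM (log axis) of each ribosomal protein gene in each of the 16 libraries, coloured by group, with the 13 cytosolic genes left of the line and the 14 mitochondrial genes right of it. Mean levels run from 475 to 1932 TPM on the left and from 23.5 to 277 TPM on the right; single libraries of Rpl19, Rps12 and Rps15 stand far above their groups.

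Mrpl27 is the mitochondrial counterpart of a bacterial protein near the peptidyl transferase centre. It was the 1 ribosomal protein gene called in either line, at a limma adjusted p under 0.05. It fell in the exon 2-3 cKO. The 4 control libraries held 76.5, 92.9, 88.0 and 86.3 TPM, and the 4 cKO libraries 66.5, 68.4, 68.5 and 68.7 TPM. All 4 cKO libraries were below all 4 controls. The means were 85.9 ± 6.87 and 68.0 ± 1.05 TPM (SD, n = 4 each), and the limma log2 difference was -0.33 with a standard error (SE) of 0.061 and an adjusted p of 0.0143. Leaving out any 1 of the 8 libraries kept the call, with adjusted p from 0.00756 to 0.0478. The gene lies at chr11:94653770-94661932 and shares 67 bases with Eme1 on the opposite strand. Whether counting used strand is not stated. Eme1 held 15.9 ± 1.55 TPM in controls and 12.9 ± 1.38 TPM in cKO (SD, n = 4 each). Its limma log2 difference was -0.29 (adjusted p = 0.104), and its part in the Mrpl27 result was not tested.

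Of all 2620 genes tested, 6.72% were called in the exon 2-3 line (4.16% higher and 2.56% lower in cKO). The mitochondrial count of 1 of 14, all of it lower, and the cytosolic count of 0 of 13 stand beside those shares. At an unadjusted p under 0.05, 4 of 14 mitochondrial genes were lower and 0 higher, and 3 of 13 cytosolic genes were higher and 0 lower, beside 7.98% lower and 13.1% higher among all genes. The medians sat on opposite sides of 0. A lower mean log2 value in cKO was found for 11 of 14 mitochondrial genes (median log2 fold change -0.079), beside 41.5% of all genes. A higher one was found for 10 of 13 cytosolic genes (median 0.044), beside 58.5% of all genes. The median over all genes was 0.032. When each library was centred on its median over the genes tested, the cytosolic median was -0.0051 with 5 of 13 higher, and the mitochondrial median -0.13 with 13 of 14 lower.

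**Figure D2:**
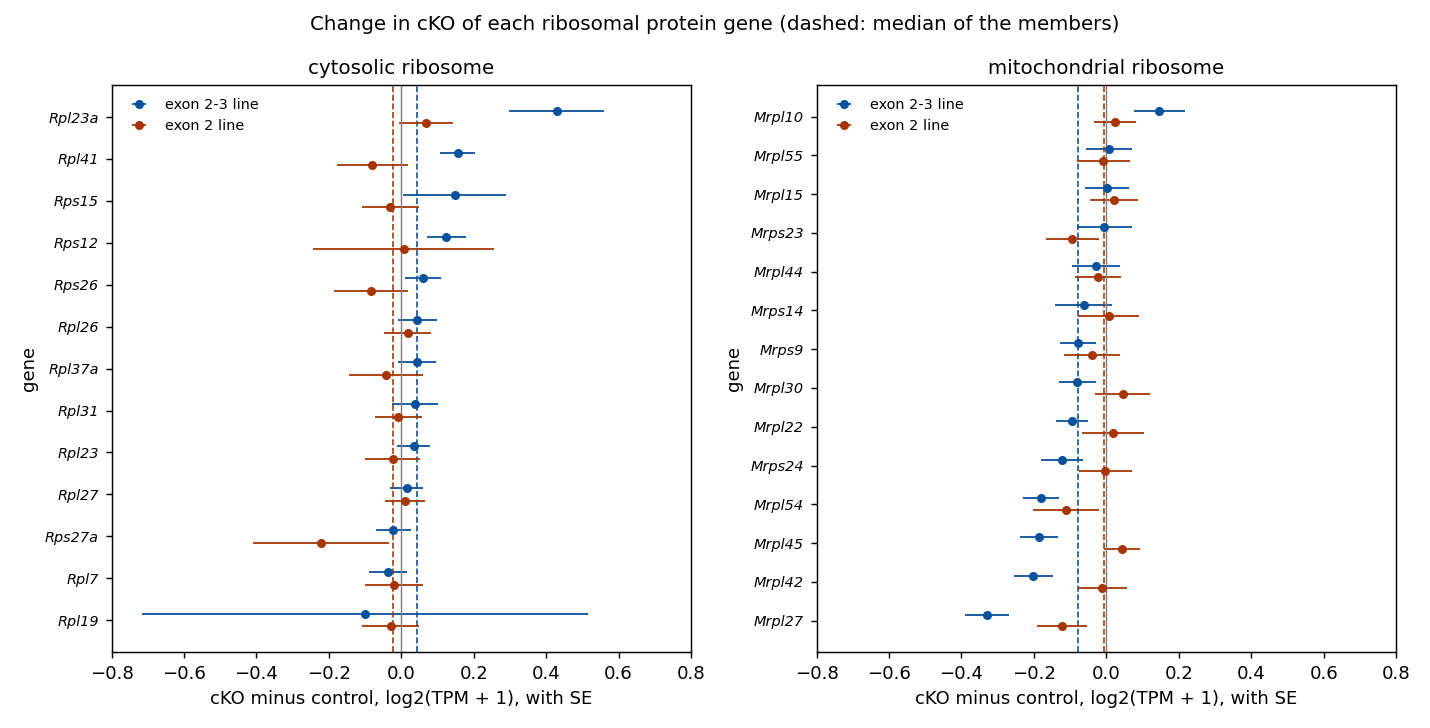
Difference between cKO and control in log2(TPM + 1), with its standard error, for each cytosolic (left) and mitochondrial (right) ribosomal protein gene in the exon 2-3 line (blue) and the exon 2 line (red); dashed lines are medians. In the exon 2-3 line the medians are 0.044 (cytosolic) and -0.079 (mitochondrial), and in the exon 2 line -0.024 and -0.0055.

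In 5 of 14 mitochondrial genes the 4 exon 2-3 cKO libraries lay wholly below the 4 controls, beside 5.31% of all genes. None of the 14 had the cKO libraries wholly above. The 5 were Mrpl27, Mrpl42, Mrpl54, Mrpl45 and Mrpl22, all of the large subunit, and the 4 besides Mrpl27 did not pass the adjusted threshold. Most of the 14 genes belong to the large subunit, and its members Mrpl30, Mrpl44, Mrpl15, Mrpl55 and Mrpl10 had overlapping groups. The 3 small-subunit genes nearest to the 5 also had overlapping groups: Mrps24 (log2 fold change -0.12, limma adjusted p = 0.263), Mrps9 (-0.078, 0.408) and Mrps14 (-0.063, 0.697).

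Mrpl42 held 322, 312, 340 and 335 TPM in the exon 2-3 controls and 303, 267, 291 and 277 TPM in the cKO libraries. The highest cKO library was just under the lowest control (log2 fold change -0.20, SE 0.053, limma adjusted p = 0.0538). Mrpl54, also without a bacterial counterpart, held 208, 191, 196 and 204 TPM in controls and 185, 169, 180 and 171 TPM in cKO. Its groups were separated by a narrow gap (log2 fold change -0.18, SE 0.050, limma adjusted p = 0.0631).

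Mrpl45 sits at the tunnel exit and is known for anchoring the mitochondrial ribosome at the inner membrane. It held 55.7, 53.9, 53.3 and 58.3 TPM in controls and 50.7, 48.9, 46.3 and 47.9 TPM in cKO (log2 fold change -0.19, SE 0.052, limma adjusted p = 0.0646). All cKO libraries were lower than all controls. The adjusted p was 0.0428 without control replicate 3, from 0.0428 to 0.183 over all 8 fits that left out 1 library, and 0.0152 after centring libraries on their medians. Mrpl22, a protein of the exit tunnel wall, held 65.6, 63.5, 65.2 and 66.0 TPM in controls and 62.7, 61.6, 60.1 and 59.2 TPM in cKO. Here the groups were separate but close (log2 fold change -0.094, SE 0.044, limma adjusted p = 0.264).

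The other mitochondrial genes had overlapping groups. Mrpl30 (log2 fold change -0.080), Mrpl44 (-0.029) and Mrps23 (-0.0056) had values a little below 0, and Mrpl15 (0.0019) and Mrpl55 (0.0068) a little above. Mrpl10, a protein at the base of the large subunit's stalk, had the highest value, 0.15 (SE 0.071, limma adjusted p = 0.278), with 64.8 ± 5.93 TPM in controls and 71.6 ± 3.58 TPM in cKO (SD, n = 4 each). Mrps23 shares 35 bases with Cuedc1 on the same strand, and Mrps9 and Mrpl44 share bases with rows on the opposite strand.

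The lowest mitochondrial gene, Mrps14, held 30.6, 28.5, 28.2 and 33.0 TPM in the exon 2-3 controls and 28.0, 29.0, 32.1 and 26.0 TPM in the cKO libraries. In the exon 2 line it held 17.3, 18.7, 15.97 and 17.9 TPM in controls and 18.7, 19.5, 15.6 and 16.6 TPM in cKO. Its groups overlapped within each line, and every library of the exon 2 line was below every library of the exon 2-3 line.

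**Figure D3:**
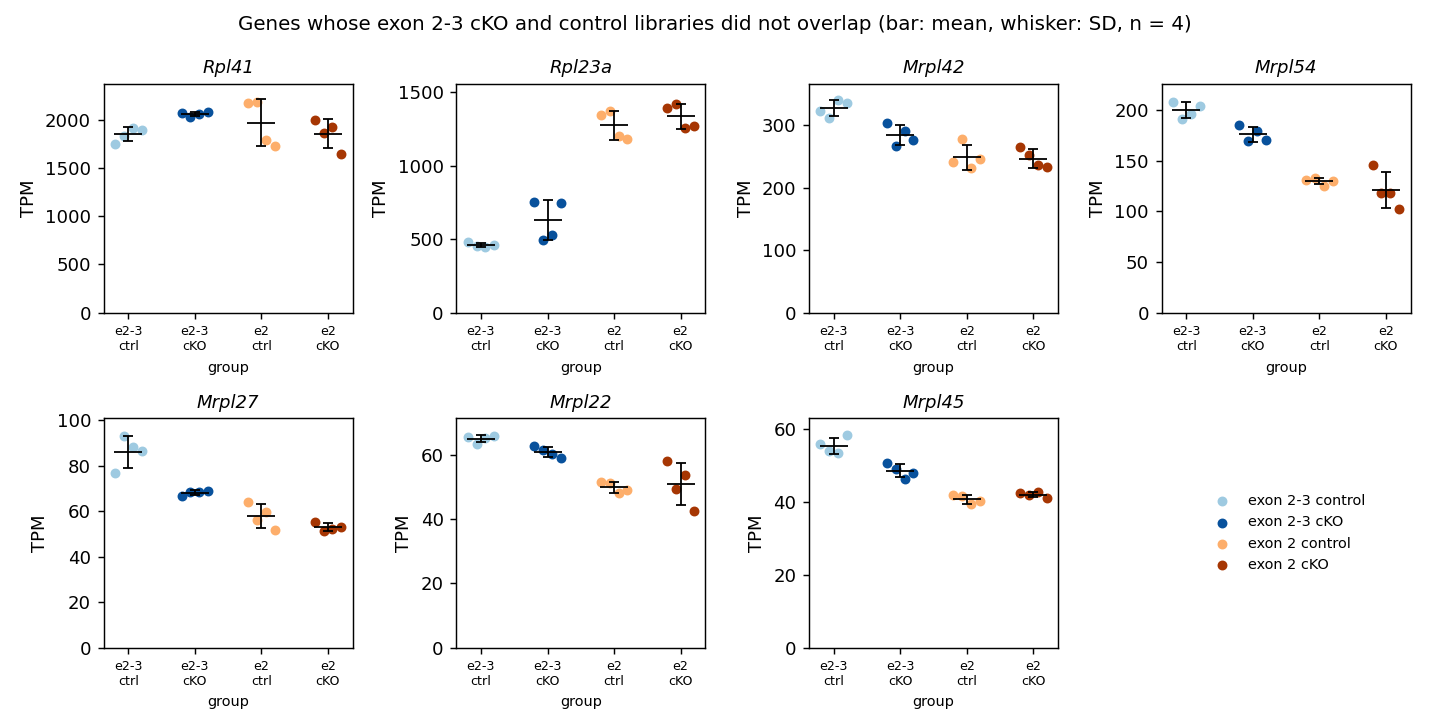
TPM in each library (points), with mean and SD (n = 4), of the 7 genes whose exon 2-3 cKO and control libraries did not overlap. Mrpl27, Mrpl42, Mrpl54, Mrpl45 and Mrpl22 were lower in cKO and Rpl41 and Rpl23a higher; Mrpl27 alone passed the adjusted threshold, and in the exon 2 line the groups of all 7 overlap.

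Among cytosolic genes, 2 of 13 had exon 2-3 cKO libraries wholly above the controls, beside 9.24% of all genes, and none wholly below. Rpl41 held 1751, 1831, 1914 and 1896 TPM in controls and 2067, 2029, 2061 and 2077 TPM in cKO. The cKO libraries were close together and above all controls (log2 fold change 0.16, SE 0.048, limma adjusted p = 0.0897), but after quantile normalisation the value was -0.067 (adjusted p = 0.798). Rpl23a, a large-subunit protein beside the tunnel exit, held 479, 455, 446 and 459 TPM in controls and 750, 495, 530 and 748 TPM in cKO. The cKO libraries fell in a high and a low pair, and the low pair was near the controls (log2 fold change 0.43, SE 0.13, limma adjusted p = 0.0884). Without cKO replicate 2, 1 of the low pair, the adjusted p was 0.0399, and it ran from 0.0399 to 0.179 over the 8 fits that left out 1 library. Rpl23a overlaps Tlcd1 on the opposite strand and contains named small nucleolar RNA genes, as do Rps12 and Rpl23, so reads of those loci may be split by the counting. Rpl31, Rps27a and Rpl19 also share bases with rows on the opposite strand.

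Rpl37a, the lowest cytosolic gene, held 493, 509, 493 and 516 TPM in the exon 2-3 controls and 545, 475, 537 and 518 TPM in cKO. Its groups overlapped (log2 fold change 0.044, limma adjusted p = 0.691). The small-subunit genes Rps12, Rps15 and Rps26 had log2 fold changes of 0.12, 0.15 and 0.059, and Rps27a, made as a fusion with ubiquitin, had -0.022. For Rps15, cKO replicate 3 held 1913 TPM, beside 1130 to 1292 TPM in the other cKO libraries and 1178 to 1259 TPM in controls. The large-subunit genes Rpl26, Rpl31, Rpl23 and Rpl27 had values from 0.015 to 0.044 and Rpl7 had -0.038. None of these 9 passed (smallest limma adjusted p = 0.217, for Rps12).

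The coefficient of variation (SD over mean) was above 20% in at least 1 group for 5 cytosolic genes, Rps12, Rps15, Rps27a, Rpl23a and Rpl19, and for no mitochondrial gene in any group. Rpl19, a large-subunit protein that helps to bridge the subunits, held 456, 283, 1387 and 291 TPM in the exon 2-3 controls and 317, 285, 1478 and 295 TPM in cKO. Replicate 3 was high in both groups. In the same libraries the row Rpl19-ps1, named as a copy of Rpl19, held 114, 115, 53.6 and 121 TPM in controls and 132, 121, 75.0 and 137 TPM in cKO, lowest in replicate 3 of both groups. Over the 8 libraries of each line, that copy averaged 109 TPM beside 599 TPM for Rpl19 in the exon 2-3 line (18.1%) and 5.64 beside 438 TPM in the exon 2 line (1.29%). The copy Rpl31-ps9 averaged 77.2 TPM beside 702 TPM for Rpl31 in the exon 2-3 line and 8.86 beside 466 TPM in the exon 2 line. Levels of both genes are therefore uncertain, more so in batch 1.

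In the exon 2 line no ribosomal protein gene was called: 0 of 13 cytosolic and 0 of 14 mitochondrial, beside 0.0763% of all genes (limma; smallest adjusted p among the 27 was 0.999). At an unadjusted p under 0.05 the count was also 0 of 27, beside 3.21% of all genes. Cytosolic and mitochondrial medians were -0.024 and -0.0055, against -0.012 over all genes. In none of the 27 did the cKO and control libraries separate, beside 1.83% of all genes.

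Rps27a had the lowest exon 2 value of the cytosolic genes, with 416, 755, 570 and 385 TPM in controls and 415, 430, 393 and 532 TPM in cKO. The controls alone spread over the whole range (log2 fold change -0.22, SE 0.19, limma adjusted p = 0.999). Rps26, a small-subunit protein at the messenger RNA exit channel, held 1426, 1766, 1251 and 1343 TPM in controls and 1400, 1437, 1351 and 1236 TPM in cKO. All but 1 of its controls lay within the cKO range (log2 fold change -0.083, SE 0.10). In the exon 2-3 line Rps26 held 1482, 1457, 1470 and 1471 TPM in controls and 1596, 1451, 1592 and 1492 TPM in cKO, and Rps27a 895, 892, 922 and 876 TPM in controls and 933, 835, 878 and 885 TPM in cKO, with overlapping groups for both.

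Mrpl27 also had the lowest mitochondrial value in the exon 2 line. It held 64.1, 56.2, 59.5 and 51.6 TPM in controls and 55.2, 51.1, 52.3 and 53.1 TPM in cKO. The lowest control lay within the cKO range (log2 fold change -0.12, SE 0.068, limma adjusted p = 0.999). Mrpl54 held 131, 133, 125 and 130 TPM in controls and 146, 119, 118 and 102 TPM in cKO, where cKO replicate 1 was above all controls and the other 3 below them (log2 fold change -0.11, SE 0.091).

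The remaining genes that had separated in the exon 2-3 line overlapped in the exon 2 line. Mrpl42 held 240, 277, 232 and 245 TPM in controls and 264, 253, 235 and 233 TPM in cKO. Mrpl45 held 41.9, 41.5, 39.2 and 40.1 TPM in controls and 42.4, 41.8, 42.7 and 40.9 TPM in cKO. Mrpl22 held 51.6, 51.2, 48.0 and 49.0 TPM in controls and 58.1, 49.4, 53.7 and 42.5 TPM in cKO. The cKO values of Mrpl22 lay on both sides of its controls, and those of Mrpl42 and Mrpl45 lay among theirs or just above. Rpl41 held 2174, 2177, 1785 and 1729 TPM in controls and 1998, 1857, 1921 and 1643 TPM in cKO. Rpl23a held 1345, 1373, 1199 and 1179 TPM in controls and 1393, 1419, 1255 and 1270 TPM in cKO. Rpl37a held 530, 401, 445 and 410 TPM in controls and 508, 391, 403 and 430 TPM in cKO. For these 3 cytosolic genes the groups overlapped over most of their range.

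The difference between the cKO effects of the lines was tested itself, as an interaction over all 16 libraries. It passed in 0 of 27 genes, beside 2.37% of all genes (limma). The smallest adjusted p was 0.0727, for Mrpl45 (difference in log2 fold change -0.23, SE 0.064). At an unadjusted p under 0.05 the count was 3 of 14 mitochondrial genes (Mrpl42, Mrpl27 and Mrpl45, all lower in the exon 2-3 line) and 1 of 13 cytosolic genes (Rpl23a, higher), beside 4.85% lower and 10.1% higher among all genes. The median difference was 0.086 for cytosolic and -0.069 for mitochondrial genes, against 0.044 over all genes. Mrpl45 passed in 4 alternatives: with no filter on low values, after quantile normalisation, after median centring and with array weights, at adjusted p from 0.0238 to 0.0491, within a range of 0.0238 to 0.108 over its 9 alternatives.

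**Figure D4:**
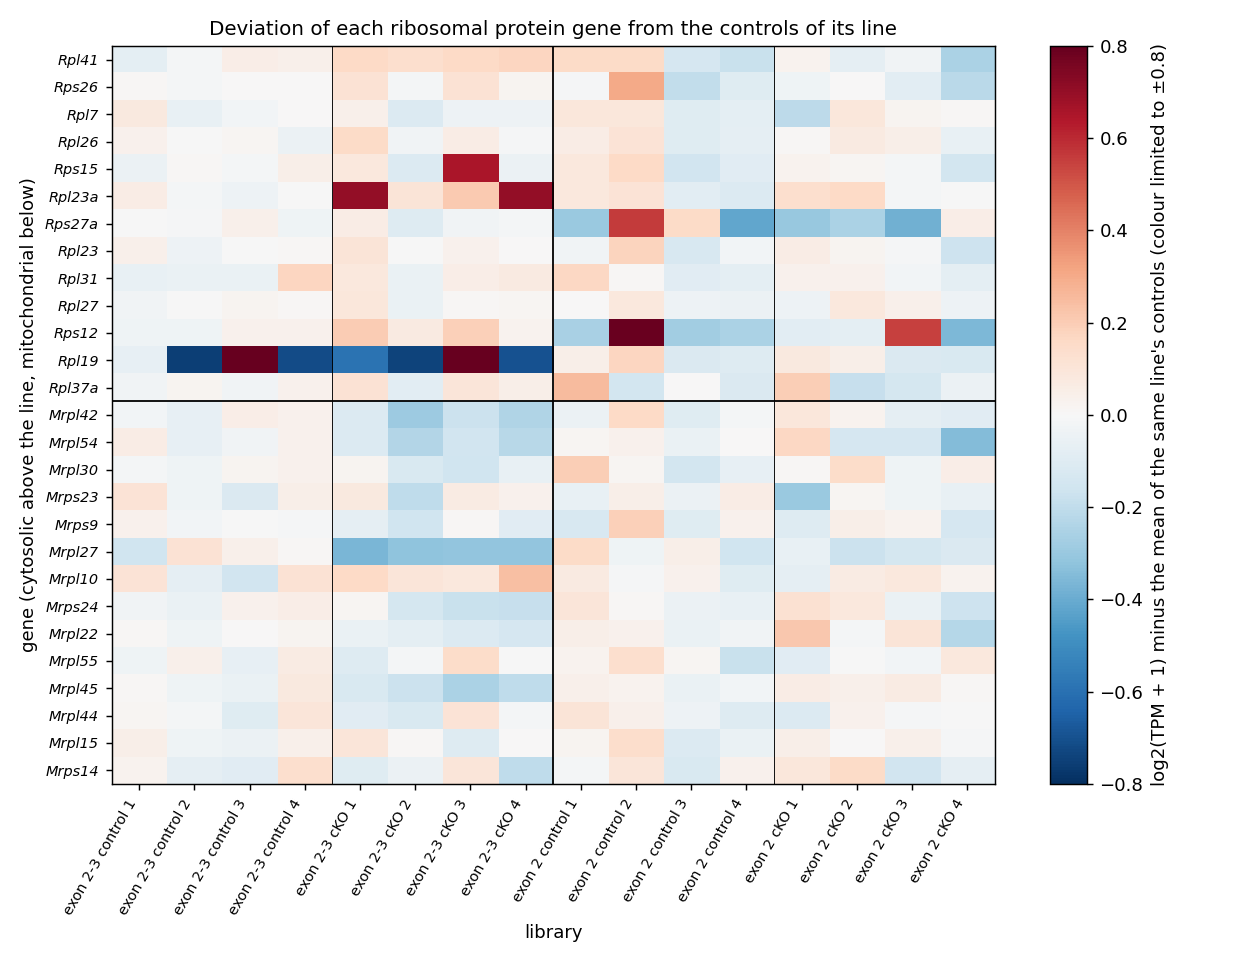
Each ribosomal protein gene (rows) in each library (columns), coloured by log2(TPM + 1) minus the mean of the controls of the same line (colour limited to ±0.8). In the exon 2-3 cKO columns Mrpl27, Mrpl42, Mrpl54, Mrpl45 and Mrpl22 are below their controls in all 4 libraries. Rps15 shows 1 strong cell, in cKO replicate 3, and Rpl19 strong cells of both signs in both groups of the exon 2-3 line.

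In the exon 2-3 line the mitochondrial sum separated cKO from control libraries and the cytosolic sum did not. The 14 mitochondrial genes summed to 1305, 1266, 1292 and 1338 TPM in controls and 1240, 1145, 1207 and 1181 TPM in cKO, with no overlap. The sum includes the genes already described as separated. Group means fell from 327 to 284 TPM for Mrpl42, from 200 to 176 TPM for Mrpl54 and from 85.9 to 68.0 TPM for Mrpl27. The mean sum fell from 1300 to 1193 TPM, so neither it nor the ratio below shows a change across all 14 genes. The 13 cytosolic genes summed to 12455, 12167, 13459 and 12470 TPM in controls and 13561, 12167, 14766 and 12835 TPM in cKO, with overlap. The cytosolic sum was 9.54, 9.61, 10.4 and 9.32 times the mitochondrial sum in controls and 10.9, 10.6, 12.2 and 10.9 times in cKO. This ratio within a library does not depend on how the library was scaled. Its highest control and its highest cKO library were both replicate 3, where Rpl19 was high in both groups and Rps15 in cKO. On the log2 scale the mitochondrial share against the cytosolic was lower by a mean difference of -0.20 in cKO. Without cKO replicate 3 the difference was -0.15, and without control replicate 3 it was -0.23. With the 8 cytosolic genes whose coefficient of variation stayed at or under 20%, a choice made after their values were seen, the difference was -0.18, and the log2 ratio ran from -2.79 to -2.75 in controls and from -2.96 to -2.95 in cKO. Picking genes for a small spread within groups narrows these ranges in advance. No test was run on these sums.

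In the exon 2 line the mitochondrial sum was 1007 ± 44.7 TPM in controls and 990.1 ± 37.7 TPM in cKO, and the cytosolic sum 11391 ± 1200 and 11089 ± 441 TPM (SD, n = 4 each). The cytosolic sum was 11.3 ± 0.70 times the mitochondrial in controls and 11.2 ± 0.22 times in cKO (SD, n = 4 each). The log2 difference was 0.010, and it ran from -0.028 to 0.039 when 1 library was left out. The groups overlapped for both sums and for the ratio.

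**Figure D5:**
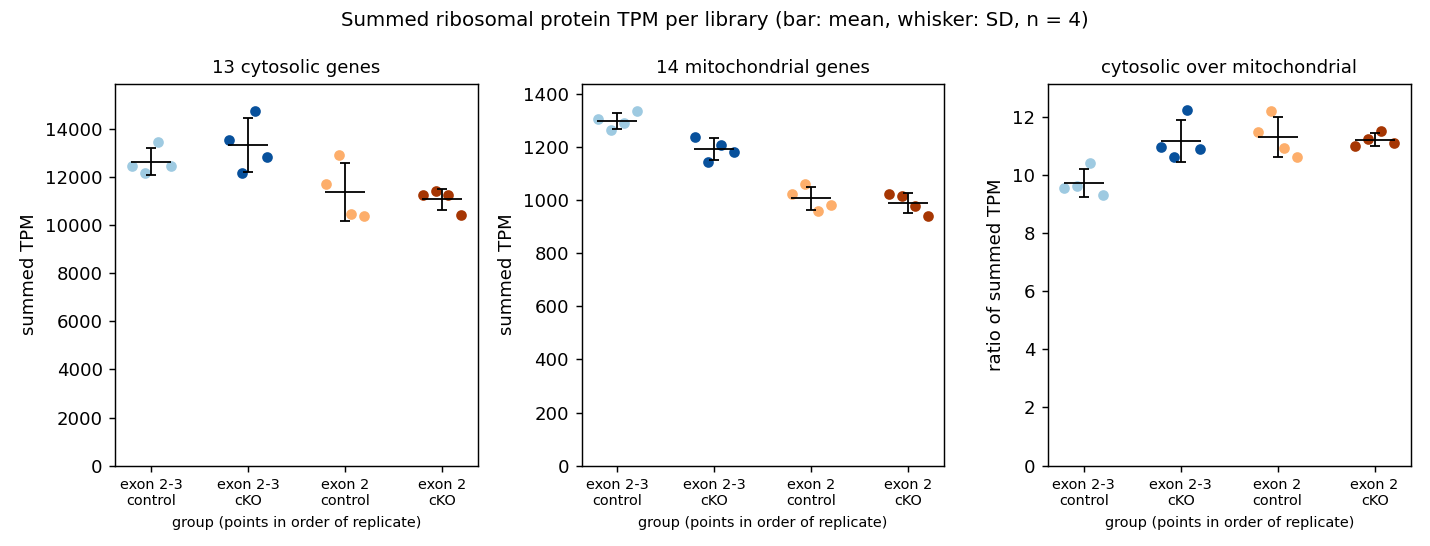
Summed TPM of the 13 cytosolic genes (left) and the 14 mitochondrial genes (middle), and their ratio (right), in each library, with mean and SD (n = 4); axes start at 0. The exon 2-3 control and cKO libraries do not overlap in the mitochondrial sum (1266 to 1338 against 1145 to 1240 TPM) or in the ratio (9.32 to 10.4 against 10.6 to 12.2), and the exon 2 groups overlap in all 3 panels.

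The controls of the 2 lines also stood at different levels. Mean TPM was higher in exon 2-3 controls than in exon 2 controls for 11 of 13 cytosolic and 13 of 14 mitochondrial genes, beside 32.7% of all genes tested. The exon 2-3 controls lay wholly above the exon 2 controls for 6 cytosolic and 10 mitochondrial genes, beside 12.9% of all genes. They lay wholly below for 1 cytosolic gene, Rpl23a, and no mitochondrial gene, beside 32.6% of all genes. Rpl23a stood at 460 ± 14.01 TPM in exon 2-3 controls and at 1274 ± 99.5 TPM in exon 2 controls (SD, n = 4 each). Line and batch cannot be told apart in these values, and no test was run on them.

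The other genes of the translation machinery were taken from lists of known components. Of 155 ribosome biogenesis genes, 36 were held and tested, and 1 passed in the exon 2-3 line: Utp20, a factor of the small-subunit processome, rose by 0.34 on the log2 scale (SE 0.067; limma adjusted p = 0.0181), with controls at 12.2 ± 0.80 and cKO at 15.7 ± 0.47 TPM (SD, n = 4 each). Of 87 mitochondrial translation genes besides ribosomal proteins, 19 were tested. The list medians were 0.034 and -0.035, against 0.032 over all genes. The Utp20 call was lost without cKO replicate 1 or 3 (adjusted p up to 0.0613). Of 73 cytosolic translation factors, 13 were tested and none was called in either line, at an adjusted or an unadjusted p of 0.05 (limma; medians -0.017 and -0.0035). In the exon 2 line the other lists also held no call. Rack1, a small-subunit protein whose symbol lies outside the rule, had a log2 fold change of 0.038 in the exon 2-3 line and did not pass.

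Markers of other cells were measured in the same libraries. Of 15 epicardial and fibroblast markers, 7 were held, and they summed to 338 to 381 TPM in exon 2-3 controls and 512 to 544 TPM in exon 2-3 cKO, against 464 to 632 and 448 to 562 TPM in the exon 2 line. Of the 6 tested, 5 rose in the exon 2-3 cKO (Tcf21, Krt19, Col1a1, Col3a1 and Dcn, limma). The 7 of 27 cardiomyocyte markers held summed to 17499 to 19044 TPM in exon 2-3 controls and 16989 to 18031 TPM in cKO, and to 13055 to 15255 and 13455 to 14586 TPM in the exon 2 line. In the exon 2-3 cKO 5 of the 7 were lower, and 1 was called, Hand1 (limma), with group means of 62.7 TPM in controls and 40.8 TPM in cKO. Group means of Tnnt2, Myl4 and Myl7 ran from 2934 to 5543 TPM, so heart muscle markers were present. These values do not tell ventricle from the rest of the heart. The 4 of 17 erythroid markers held summed to 2995 to 4554 TPM in exon 2-3 controls, 1512 to 11293 in cKO, and 2126 to 4707 and 2018 to 3738 in the exon 2 line. Endothelial (1 of 16 held), myeloid (5 of 17) and neuronal (4 of 23) sums stayed at or under 87.5 TPM in all libraries. Lyz2 gave most of the myeloid sum (group means 58.1 to 80.3 TPM) and Vamp2 most of the neuronal sum (52.2 to 73.4 TPM). The other markers of both lists had group means of at most 6.35 TPM. Map2 reached at most 0.84 and Syt1 at most 0.42 TPM. None of the held markers was at 0 in all libraries. In these ventricles, fewer cells of a type and less RNA per cell cannot be told apart, and the part of these markers in the ribosomal protein values was not tested.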

How the data were processed

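RNA-seq of 16 ventricle libraries was deposited by the authors as 1 table of TPM per gene. Depth per library is unknown: TPM keeps none, and the design text gives a range of read pairs for the series only. The submitters' processing notes name FastQC, Trim Galore 0.6.7, HISAT2 2.2.1, StringTie 2.2.1, featureCounts, DESeq2 and build GRCm38, without roles. The labels' protocols name rRNA depletion and cultured cortical neurons, whereas the design text names stranded mRNA libraries and ventricle. Sample titles name heart. The labels do not settle this conflict, and values of muscle and neuronal markers are given above. The rows held carry 15.2% to 17.1% of each library's TPM, and 1 incomplete row was left out.

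Groups came from the sample titles. The 2620 genes whose TPM averaged 1 or more across all 16 libraries entered the tests, on log2(TPM + 1), which understates changes of low genes, with limma 3.58.1 (R 4.3.3; trended variance, two-sided, Benjamini-Hochberg over all genes, threshold 0.05), each line on its own 8 libraries and the interaction on all 16. The fit was tested on simulated data. Values in every library are given for members called, separated between groups, highest or lowest in level, or with the 2 largest changes of each ribosome in each line; of the other lists, called genes are named, except 1 result that is not reported here. The members and lists were chosen with earlier results of these data known.

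Alternatives were other pseudocounts and filters, quantile normalisation, median centring, rescaling without hemoglobin genes, array weights, 1 fit over all libraries, a replicate block and leaving out each library. Those on the count of separated genes and on steady cytosolic genes were added after seeing the data.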

Additional observations from a re-analysis of the deposited data

Results flagged for a closer look

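In 6 of 120 groups of 4 libraries, 1 library stood far from the other 3, by its gap to the nearest of them as a share of the group's range (Dixon's critical value at 95%). Chance alone flags about 6 of 120. Rpl31 held 777 TPM in exon 2-3 control replicate 4, with the other controls at 663 to 665 TPM. Rps12 held 832 TPM in exon 2 control replicate 2, with the others at 396 to 403 TPM. Rpl19 held 1387 TPM in exon 2-3 control replicate 3 (others 283 to 456 TPM) and 1478 TPM in exon 2-3 cKO replicate 3 (others 285 to 317 TPM). Mrpl27 held 66.5 TPM in exon 2-3 cKO replicate 1, close below the others at 68.4 to 68.7 TPM. The cytosolic sum was 10436 TPM in exon 2 cKO replicate 4, with the others at 11248 to 11406 TPM.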

How the results depend on the processing

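Of 213 alternative values for counts, medians and ratios, 188 stayed near the main value and 25 moved. A count stayed if it lay within a fixed factor of the main count. A median or ratio stayed if its shift was smaller than the SD between libraries. Sign was not part of this rule: the exon 2-3 cytosolic median went from 0.044 to -0.0051 after median centring and counted as unmoved. Part of the values could not have moved, so the count of unmoved values does not measure robustness. The other filters kept all members, and a replicate block cannot change medians or ratios in a balanced design. Leaving out 1 library always shifts a ratio by less than the SD between libraries. In the exon 2-3 line, where 176 genes were called (61.9% higher), 95 were called with no filter on low values, 311 after quantile normalisation (50.5% higher), 343 after median centring (41.4% higher) and 70 to 190 with 1 library left out (fewest without cKO replicate 3). In the exon 2 line 4 genes, not 2, were called in 1 fit over all libraries, and 2 to 4 with 1 library left out. For the interaction (62 genes), 133 were called after quantile normalisation, 127 after median centring, 136 with array weights and 36 to 84 with 1 library left out. Mitochondrial members called in the exon 2-3 line numbered 3, not 1, after quantile normalisation and after median centring (Mrpl27, Mrpl45 and Mrpl54), 2 in 1 fit over all libraries and 1 to 2 with 1 library left out. Cytosolic members called numbered 1, not 0, in 1 fit over all libraries (Rpl23a) and 0 to 1 with 1 library left out. The mitochondrial median there was -0.13 after median centring, and the Rpl41 value turned to -0.067 after quantile normalisation. The causes were not tested.

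Mitochondrial members separated in the exon 2-3 line numbered 3 after quantile normalisation and 5 to 7 with 1 library left out. Cytosolic members numbered 1 after quantile normalisation, 0 after median centring, 3 without hemoglobin genes and 2 to 4 with 1 library left out (4 without cKO replicate 2). With 1 library left out, the exon 2-3 medians ran from 0.023 to 0.085 (cytosolic) and from -0.096 to -0.067 (mitochondrial), and the log2 ratio from -0.23 to -0.15. The exon 2 medians changed sign, from -0.067 to 0.023 and from -0.028 to 0.027.

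Replicate numbers were not taken to pair the libraries, since not every same-numbered pair correlated above 0.1 in its deviations: values ran from -0.029 to 0.21 in the exon 2-3 line (2 of 8 libraries correlated best with their own number) and from 0.064 to 0.20 in the exon 2 line, where 7 of 8 did, a hint of pairing from the data alone. With a replicate block 149, 2 and 68 genes were called, and member counts stayed at 0 cytosolic and 1 mitochondrial.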
